A study of Mus musculus with 3 samples.

Results

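Leukocyte integrins are the adhesion receptors that white blood cells use to hold on to vessel walls, matrix and other cells. The 10 genes followed here were Itgam, Itgal, Itgb2, Itga4, Itga6, Itgb1, Itgb7, Itgae, Itgav and Itgb5. They were found by their symbols in the feature tables of all 3 libraries, and they are 10 of the 31053 mouse genes listed there.

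An integrin is a pair of 1 alpha and 1 beta chain, and most chains reach the cell surface only in such a pair. Itgb2 pairs with Itgal to make LFA-1 and with Itgam to make Mac-1, Itgb7 pairs with Itga4 or Itgae, and Itgb1 and Itgb5 pair with alpha chains of broader expression. Signals inside the cell switch the pair to a state of high affinity, and the bound pair then signals back through adaptors at its cytoplasmic tail.

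The study sequenced single cells from bone marrow cultures of C57/BL6 mice and from human skin carried under the skin of mice. The culture groups ask what vitamin D3 does to cells grown from marrow in granulocyte-macrophage colony-stimulating factor (GM-CSF), and the graft shows the mouse cells that enter implanted human skin. Each group has 1 library, so no difference below has a replicate check, and every comparison is between libraries and not between replicated conditions.

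Co-Mac is the untreated culture. VD-Mac is the sister culture that received 1,25 dihydroxy-cholecalciferol (VD3) at 1e-06 M on day 7 of culture for 24 h. How many mice gave marrow to the cultures is not stated. hSTSG is a human split-thickness skin graft taken out on day 14 from wild-type C57BL6/J hosts, with cells of 5 mice pooled. The feature table holds mouse genes only, so cells of the human skin itself have no genes to be counted on. The age of the mice is not given.

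Depth differed among the libraries. Co-Mac held 136905324 gene UMIs (unique molecular identifiers, 1 per captured transcript) in 7866 barcodes, VD-Mac 124731240 in 9794, and hSTSG 24472168 in 2644. Cells were kept at 300 or more detected genes, under 100000 UMIs and under 10% mitochondrial UMIs. That left 7257 cells with a median of 15804 UMIs in Co-Mac, 8825 cells with a median of 12089 in VD-Mac, and 2144 cells with a median of 6638 in hSTSG. Kept barcodes present in more than 1 library numbered 15 for Co-Mac with VD-Mac, 3 for Co-Mac with hSTSG and 6 for VD-Mac with hSTSG. Leaving them out changed no count of members called over all kept cells or in macrophage-like cells.

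Levels are UMI counts scaled to CPM (counts per 1e+06 gene UMIs) over the summed cells of a group, with exact Poisson 95% intervals. Intervals for levels, shares and ratios cover counting error only, and not the difference between animals or cultures. The call of higher or lower in VD-Mac needed a difference of 2-fold and a level of 10 CPM in whichever library had more. CPM levels are compared across cells within a gene. Where the UMIs of a pair of chains are given as a share, the share is compared across cells and not read as a ratio of the chains' abundance.

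Cell classes are named after marker genes and carry the word "like" for that reason. In Co-Mac, 14.5% of kept cells were macrophage-like, 21.5% proliferating, 37.1% mature dendritic cell (DC)-like and 12.2% neutrophil-like. In VD-Mac the same classes held 13.3%, 12.1%, 39.4% and 11.6% of kept cells. The labels call both cultures macrophages, and the class named after macrophage markers held 1053 and 1172 cells. Clusters with no name held 11.1% of Co-Mac cells, 20.1% of VD-Mac cells and 1.68% of hSTSG cells. The macrophage-like class was cluster 7 in Co-Mac and cluster 5 in VD-Mac, and the proliferating class was cluster 3 in Co-Mac and cluster 6 in VD-Mac. The mature DC-like class was mostly cluster 1 in Co-Mac (2625 cells) and cluster 0 in VD-Mac (3287 cells). The neutrophil precursor-like class was clusters 6 and 14 in Co-Mac and clusters 14 and 3 in VD-Mac, with 75 of 116 Co-Mac cells in cluster 6 and 96 of 110 VD-Mac cells in cluster 14. The macrophage-like and proliferating classes shared no cluster between the libraries and were matched by markers, so differences within them are between different clusters. The other 2 shared clusters in part. Mature DC-like cells shared clusters 1 and 10 (2625 and 68 Co-Mac cells, 12 and 179 VD-Mac cells). Neutrophil precursor-like cells shared cluster 14 (41 Co-Mac cells). Cluster 3 was proliferating in Co-Mac but neutrophil precursor-like in VD-Mac, where it had 14 cells. Cluster 6 was neutrophil precursor-like in Co-Mac, with 75 cells, but proliferating in VD-Mac. Comparisons within the proliferating and neutrophil precursor-like classes thus set unlike clusters side by side.

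The 10 macrophage markers were all detected in both macrophage-like classes. Their summed level was 1980 CPM in Co-Mac and 2494 CPM in VD-Mac, and C1qb was the most abundant of them in both, at 755 and 1009 CPM. Markers of other cells also differed between these classes. The summed level of the 8 neutrophil markers was 464 CPM in Co-Mac and 1574 CPM in VD-Mac, with S100a8 the most abundant at 314 and 1058 CPM. The 8 neutrophil precursor markers summed to 14.6 and 73.9 CPM. The 7 mature DC markers summed to 120 and 138 CPM. The part of these cells or of their free RNA in the values below was not tested. The median mitochondrial share of UMIs was 6.04% in Co-Mac and 7.02% in VD-Mac macrophage-like cells.

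The proliferating classes also held markers of other cells. The neutrophil markers summed to 6624 CPM in Co-Mac and 14357 CPM in VD-Mac, with S100a8 the most abundant at 3874 and 8331 CPM. The macrophage markers summed to 1066 and 2167 CPM and the mature DC markers to 504 and 438 CPM. The neutrophil precursor markers summed to 578 CPM in Co-Mac, where Prtn3 was the most abundant at 210 CPM, and to 545 CPM in VD-Mac, where Ngp was at 255 CPM. Prtn3 and Elane were among the 10 leading genes of the Co-Mac cluster only. The classes thus differed in these markers, and their part in the proliferating values was not tested. The median mitochondrial share of UMIs was 5.42% in Co-Mac and 6.45% in VD-Mac proliferating cells. The mast cell or basophil-like cluster had antibody light chain genes among its 10 leading genes, Igkc and Iglc1 in Co-Mac and Igkc in VD-Mac. The part of B-lineage cells or of their free RNA in the values of that class was not tested.

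The largest unnamed cluster, VD-Mac cluster 4 with 1445 cells, had 6 cell cycle genes among its 10 leading genes. It was left without a name for its depth, a median of 1829 UMIs. With it, the VD-Mac proliferating class has 2516 cells in place of 1071, and in this comparison, chosen after seeing the data, the members called in proliferating cells were the same. The log2 ratios were then -2.11 for Itgam, -1.16 for Itgal, 1.09 for Itga6 and 1.89 for Itgb7.

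Over all kept cells, 1 of the 9 members tested was called higher in VD-Mac, where 2.16% of all 7732 genes tested were. Among the same 9, 2 members were called lower, against 4.63% of all genes. Itgae, under 10 CPM in both libraries, was the member not tested. The median log2 ratio of VD-Mac over Co-Mac was -0.46 for the members tested and -0.10 for all genes tested, so the whole table leaned slightly toward lower values in VD-Mac.

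Within macrophage-like cells, 2 of 9 members tested were called higher, against 4.64% of 7543 genes. In these cells 3 members were called lower, against 5.87% of genes. The median log2 ratio was -0.48 for the members and -0.06 for all genes. The members thus moved in both directions, and the calls in macrophage-like cells take in every member called over all kept cells.

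Itgam encodes the alpha M chain of Mac-1, which binds the complement fragment iC3b, fibrinogen and ICAM-1. In macrophage-like cells its level was 400 CPM (392 to 408) in Co-Mac and 87.9 CPM (83.8 to 92.1) in VD-Mac. It fell by 2.19 on the log2 scale, with an interval from -2.26 to -2.11, the widest gap of any member in that class. In proliferating cells the level was 253 CPM in Co-Mac and 64.1 CPM in VD-Mac, a log2 ratio of -1.98. In all kept cells together it was 198 CPM in Co-Mac and 52.4 CPM in VD-Mac, a log2 ratio of -1.92. This call over all kept cells was lost with cells under 5% mitochondrial UMIs, at -0.78, and with the mean over cells, at -0.99.

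Neutrophil-like cells did not show this fall in Itgam. Their level was 409 CPM (391 to 429) in Co-Mac and 463 CPM (441 to 485) in VD-Mac. The log2 ratio of 0.18 lay next to the median of 0.16 over all genes tested in that class. Neutrophil precursor-like cells had 332 CPM in Co-Mac and 305 CPM in VD-Mac, and the interval of the log2 ratio, -0.32 to 0.07, included 0. These levels mix unlike clusters. In Co-Mac cluster 14 had 475 CPM (410 to 546) and cluster 6 had 282 CPM (252 to 314), while in VD-Mac cluster 14 had 408 CPM (367 to 454) and the 14 deep cells of cluster 3 (median of 21818 UMIs) had 28.2 CPM (12.9 to 53.6). In VD-Mac the neutrophil-like level of Itgam therefore lay above the macrophage-like one, while in Co-Mac their intervals overlapped. Whether the classes differ in their response was not tested.

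The share of cells with an Itgam UMI was compared after thinning each cell to 2000 UMIs, so that depth did not differ. In macrophage-like cells it was 50.5% (47.5 to 53.6, Clopper-Pearson) in Co-Mac and 16.3% (14.2 to 18.5) in VD-Mac. No cell of these classes was left out by the thinning, and without it 96.8% and 48.5% of cells had one, with medians of 20346 and 15160 UMIs per cell. As a floor from the same droplets, mature DC-like cells, which had little of the gene, had 1.08% in Co-Mac and 0.319% in VD-Mac at median depths of 14372 and 13388 UMIs. Thinning left out 11 and 32 of those cells, and their shares without thinning were 7.65% and 2.42%. The macrophage-like shares lay above these in both libraries. Because the floor class was picked for its low level, this mostly restates the difference in level.

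Itgal encodes the alpha L chain of LFA-1, which binds ICAM-1 and ICAM-2. Its macrophage-like level was 111 CPM (107 to 115) in Co-Mac and 48.4 CPM (45.4 to 51.6) in VD-Mac, and it fell by 1.19 on the log2 scale. The proliferating class had 79.0 to 84.0 CPM (interval) in Co-Mac and 37.6 to 42.4 CPM in VD-Mac, a log2 ratio of -1.03. That call was lost with the median ratio of all genes set to 0, at -0.90, and with the mean over cells. For all kept cells the level was 58.5 CPM in Co-Mac and 23.3 CPM in VD-Mac, a log2 ratio of -1.33. Itgal was thus called lower in the same groups of cells as Itgam. Neutrophil-like cells had 65.1 CPM in Co-Mac and 69.7 CPM in VD-Mac, a difference within the counting intervals.

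Itgb2 encodes the beta 2 chain that Itgam, Itgal and Itgax share. In macrophage-like cells its level was 394 CPM (386 to 402) in Co-Mac and 282 CPM (275 to 289) in VD-Mac, a log2 ratio of -0.48 that did not reach 2-fold. In proliferating cells it was 231 CPM in Co-Mac and 207 CPM in VD-Mac, a log2 ratio of -0.16. In these 2 classes the shared beta chain differed less between the cultures than its alpha chains Itgam and Itgal. Mature DC-like cells had 25.3 CPM in both libraries. Neutrophil-like cells had 273 CPM in Co-Mac and 331 CPM in VD-Mac, a log2 ratio of 0.28, beside 0.18 for Itgam and 0.10 for Itgal. Mast cell or basophil-like cells had 99.5 CPM in Co-Mac and 148 CPM in VD-Mac, a log2 ratio of 0.57, beside -0.22 for Itgam and -0.30 for Itgal, so the smaller difference of the beta chain did not hold in every class.

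The balance of Itgam and Itgb2 was read within each class. Itgam gave 50.4% (49.7 to 51.1) of the UMIs of Itgam plus Itgb2 in Co-Mac macrophage-like cells and 23.8% (22.8 to 24.8) in VD-Mac. In proliferating cells the share was 52.3% in Co-Mac and 23.6% in VD-Mac. In neutrophil-like cells the interval was 58.2% to 61.8% in Co-Mac and 56.4% to 60.1% in VD-Mac. Mature DC-like cells had 18.7% (16.6 to 21.0) in Co-Mac and 7.18% (5.87 to 8.68) in VD-Mac. Their Itgam, used above as the floor, was at 5.84 and 1.95 CPM, below the minimum for a call. How much of it was free RNA was not tested. The cDC1-like cells had 35 of 143 UMIs (17.7% to 32.4%) and 10 of 175 (2.77% to 10.3%). The share was lower in VD-Mac without overlap of the intervals in macrophage-like, proliferating, mature DC-like and cDC1-like cells. The intervals overlapped in neutrophil-like, neutrophil precursor-like and mast cell or basophil-like cells.

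Itgb7 encodes the beta 7 chain, the partner of Itga4 in the gut-homing receptor and of Itgae in the receptor for E-cadherin. Its macrophage-like level was 24.7 CPM (22.7 to 26.8) in Co-Mac and 99.9 CPM (95.5 to 104) in VD-Mac. It rose by 2.02 on the log2 scale (1.88 to 2.15), the highest ratio of the 10 members in that class. Proliferating cells had 23.8 CPM in Co-Mac and 94.6 CPM in VD-Mac, a log2 ratio of 1.99. Over all kept cells Itgb7 was the member called higher, with 18.4 CPM in Co-Mac and 52.2 CPM in VD-Mac, a log2 ratio between 1.43 and 1.57.

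Levels of Itgb7 in other culture classes ranged widely. The cDC1-like class (conventional DC of type 1) had 210 CPM in Co-Mac and 283 CPM in VD-Mac. Mast cell or basophil-like cells had 142 and 148 CPM, with intervals that overlapped. Mature DC-like cells had 3.85 and 7.55 CPM, below the minimum for a call. The VD-Mac macrophage-like level thus stayed below that of both classes already high in Co-Mac.

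Neutrophil-like cells had 4.39 CPM of Itgb7 from 19 UMIs in Co-Mac and 18.2 CPM from 66 UMIs in VD-Mac. This was called higher, with a log2 ratio of 2.05 (1.30 to 2.87). The ratio was near that of the macrophage-like class, and neutrophil-like levels were low beside it in both libraries. How much of these UMIs was free RNA was not tested.

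After thinning to 2000 UMIs, 4.27% (3.13 to 5.68) of Co-Mac and 19.1% (16.9 to 21.5) of VD-Mac macrophage-like cells had an Itgb7 UMI. Unthinned shares were 31.3% and 62.0%. The floor came from neutrophil-like cells, where the level of Itgb7 was low. They had 0.645% (0.176 to 1.64) in Co-Mac with 268 cells left out and 3.72% (2.47 to 5.37) in VD-Mac with 300 left out, at median depths of 4352 and 3386 UMIs. Unthinned, they had 2.14% and 5.56%. The floor itself was higher in VD-Mac, and the macrophage-like share lay above it in both libraries. Because the floor class had a low level, this mostly restates the difference in level. Mature DC-like cells, the floor for Itgam, had less Itgb7, at 3.85 and 7.55 CPM.

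Itgb1 encodes the beta 1 chain, which pairs with Itga4, Itga6, Itgav and many other alpha chains. Its macrophage-like level was 187 CPM in Co-Mac and 169 CPM in VD-Mac, a log2 ratio of -0.15. Itgb7 gave 11.6% (10.8 to 12.6) of the UMIs of Itgb7 plus Itgb1 in Co-Mac macrophage-like cells and 37.2% (35.9 to 38.5) in VD-Mac. Itga4 can pair with both. Itgb7 differed 4.04-fold between the libraries and Itgb1 1.11-fold. In proliferating cells the share was 11.3% in Co-Mac and 35.6% in VD-Mac. In mature DC-like cells Itgb1 had 380 CPM in Co-Mac and 263 CPM in VD-Mac, a log2 ratio of -0.53.

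Itga4 encodes the alpha 4 chain, which binds VCAM-1, fibronectin and MAdCAM-1 according to its beta partner. In macrophage-like cells its level was 29.5 CPM (27.3 to 31.8) in Co-Mac and 13.1 CPM (11.6 to 14.8) in VD-Mac, and it fell by 1.17 on the log2 scale. The call was lost at clustering resolution 0.3, at -0.70, with macrophage-like and proliferating clusters joined, at -0.77, and at a minimum of 50 CPM, which its levels do not reach. The direction was the same in each, and Itga4 went the other way from Itgb7 in the same cells. The proliferating class had 30.9 CPM in Co-Mac and 21.5 CPM in VD-Mac, a log2 ratio of -0.53 that was not called. Of the named culture classes, mature DC-like cells had the highest level in each library, with 125 CPM in Co-Mac and 70.6 CPM in VD-Mac, a log2 ratio of -0.82.

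Itga6 encodes the alpha 6 chain, a laminin receptor. Its macrophage-like level was 11.7 CPM (10.4 to 13.2) in Co-Mac and 27.9 CPM (25.6 to 30.3) in VD-Mac, and it rose by 1.25 on the log2 scale. Proliferating cells had 14.9 to 17.1 CPM (interval) in Co-Mac and 37.6 CPM in VD-Mac, a log2 ratio of 1.23. Over all kept cells the levels of 26.9 and 53.1 CPM gave a ratio of 1.97-fold, just under the 2-fold threshold, and setting the median ratio of all genes to 0 moved it past that threshold. In cDC1-like cells Itga6 had 5 UMIs (4.62 CPM) in Co-Mac and 71 UMIs (46.4 CPM) in VD-Mac, a log2 ratio of 3.33 (2.04 to 4.99). Mast cell or basophil-like cells had 256 CPM in Co-Mac and 224 CPM in VD-Mac, and these intervals overlapped.

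Itgae encodes the alpha E chain (CD103), which pairs with Itgb7 and binds E-cadherin. In the cultures its level was highest in cDC1-like cells, at 370 CPM (335 to 408) in Co-Mac and 202 CPM (181 to 226) in VD-Mac. The log2 ratio of -0.87 did not reach 2-fold. In every other named class of both cultures its level was 11.4 CPM or less. Since cDC1-like cells are few, they held 401 of the 925 Itgae UMIs of Co-Mac, where proliferating cells held 355 and macrophage-like cells 113. In VD-Mac they held 310 of 501. Macrophage-like cells, where Itgb7 rose, had 4.81 CPM of Itgae in Co-Mac and 2.51 CPM in VD-Mac.

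After thinning to 2000 UMIs, 50.6% (39.0 to 62.2) of cDC1-like cells had an Itgae UMI in Co-Mac and 35.6% (27.0 to 44.9) in VD-Mac, and the intervals overlapped. The thinning left out none of the 77 and 118 cells, and without it 90.9% and 85.6% had one, with medians of 13411 and 11884 UMIs per cell. Mature DC-like cells had 0.224% in Co-Mac and 0.116% in VD-Mac after thinning, at median depths of 14372 and 13388 UMIs, and 1.08% and 0.633% without it. The cDC1-like shares lay above these in both libraries. Because mature DC-like cells had a low level of Itgae, this mostly restates the difference in level.

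Itgav encodes the alpha V chain and Itgb5 one of its beta partners, and together they bind vitronectin. Itgav had 21.2 CPM in Co-Mac and 13.4 CPM in VD-Mac macrophage-like cells, a log2 ratio of -0.66. Itgb5 had 26.0 CPM in Co-Mac and 34.4 CPM in VD-Mac in the same cells, a log2 ratio of 0.41. Neither reached 2-fold there. In neutrophil-like cells Itgb5 was 38.1 CPM (32.5 to 44.4) in Co-Mac and 15.2 CPM (11.4 to 19.7) in VD-Mac, called lower with a log2 ratio of -1.33.

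**Figure D1:**
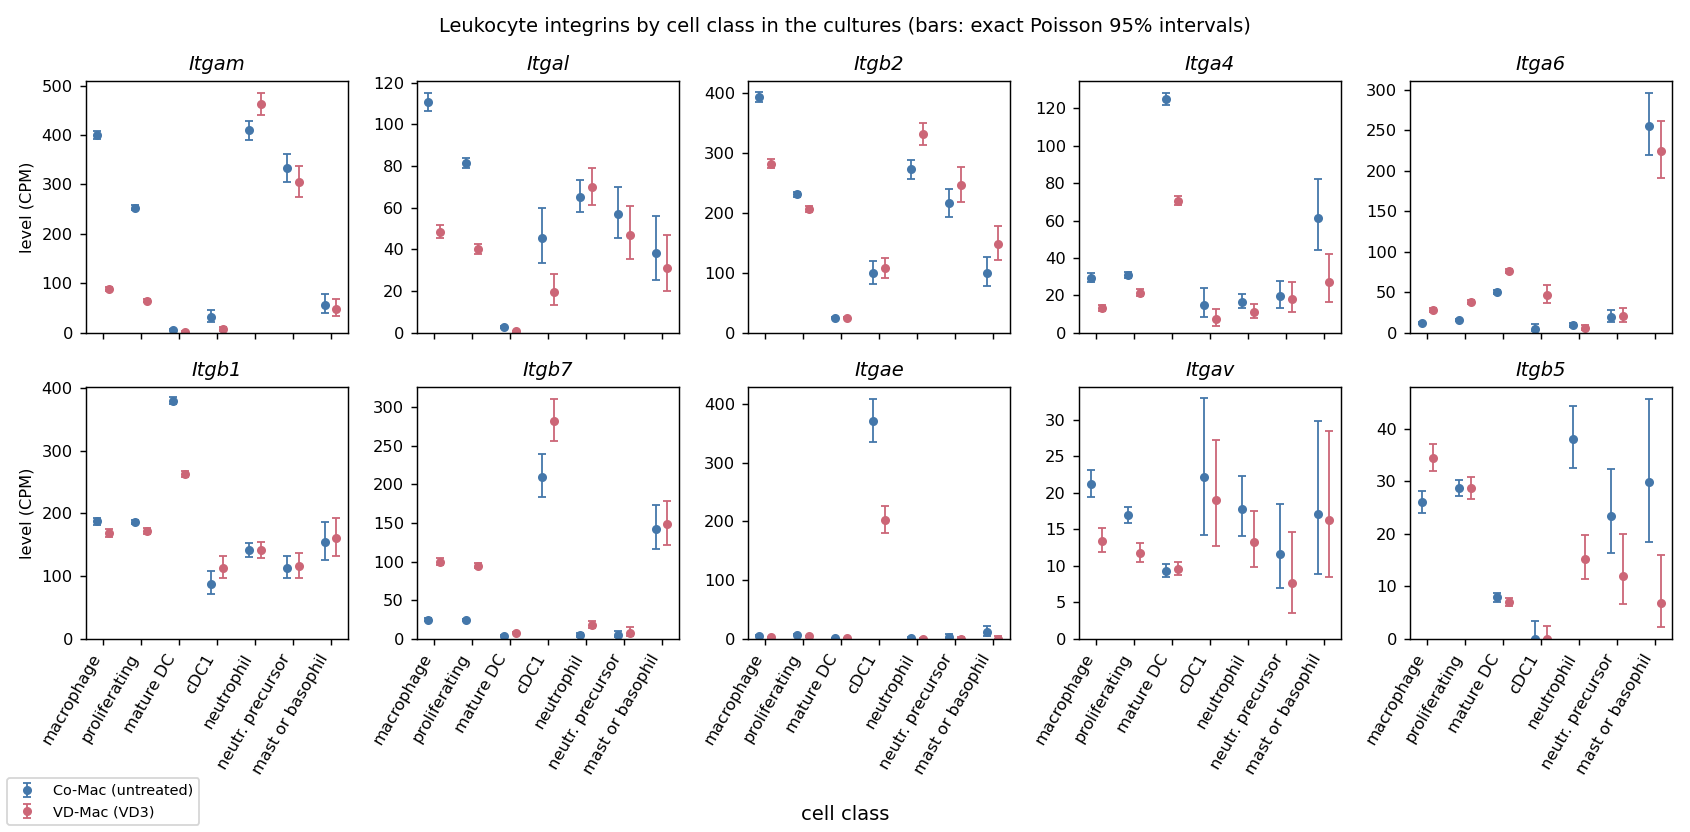
Level in CPM of each member (1 panel per gene, each with its own axis) in 7 cell classes of the Co-Mac and VD-Mac libraries, with exact Poisson 95% intervals. Itgam in macrophage-like cells is at 400 CPM in Co-Mac and 87.9 CPM in VD-Mac, while Itgb7 is at 24.7 and 99.9 CPM.

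The other classes gave these calls. In proliferating cells 2 members of 9 were called higher, against 3.27% of genes, and 2 lower, against 4.78%. They were Itga6 and Itgb7 on one side and Itgam and Itgal on the other, in a class whose median log2 ratio over all genes was -0.12. In mature DC-like cells none of 4 members tested was called higher, against 2.29% of genes, or lower, against 2.4%. In neutrophil-like cells 1 of 8 was called higher, against 1.64%, and 1 lower, against 2.3%, and these were Itgb7 and Itgb5.

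The smaller classes rest on few cells. In neutrophil precursor-like cells none of 8 members was called higher, against 3.84% of genes, or lower, against 7.55%. In cDC1-like cells 1 of 9 was called higher, against 9.32%, and 3 lower, against 7.44%. The one called higher was Itga6, and those called lower were Itgam, Itgal and Itga4. The call of Itga4 rests on 16 UMIs in Co-Mac and 11 in VD-Mac, and the interval of its log2 ratio, -2.29 to 0.16, included 0. In mast cell or basophil-like cells none of 10 was called higher, against 9.03%, and 3 lower, against 6.25%.

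The members called lower in mast cell or basophil-like cells were Itga4, Itgb5 and Itgae. Itga4 had 43 UMIs (61.2 CPM) in Co-Mac and 20 UMIs (27.2 CPM) in VD-Mac. Itgb5 had 21 UMIs in Co-Mac and 5 in VD-Mac, a log2 ratio of -2.14 (-3.90 to -0.69). Itgae had 8 UMIs in Co-Mac and 0 in VD-Mac, where the limit from 3 counts is 4.07 CPM. No member was called in opposite directions in any pair of classes.

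**Figure D2:**
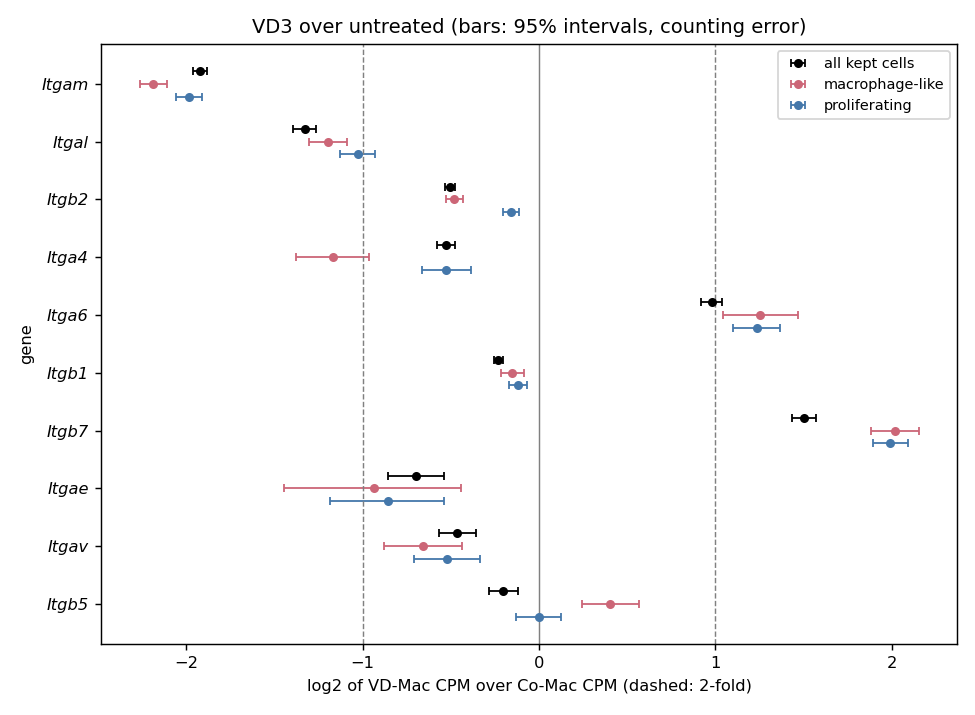
Log2 ratio of VD-Mac over Co-Mac for each member over all kept cells, macrophage-like cells and proliferating cells, with 95% counting intervals and dashed lines at 2-fold. Itgam and Itgal lie beyond the lower line in each set, Itgb7 beyond the upper line, and Itga6 at 0.98 over all kept cells lies just inside it.

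The cells that had Itgam and those that had Itgb7 were compared within VD-Mac after thinning to 2000 UMIs. Among macrophage-like cells with an Itgam UMI, 21 of 191 (interval 6.94% to 16.3%) also had an Itgb7 UMI, and among those without, 20.7% (203 of 981) did. Among proliferating cells the shares were 4.11% (6 of 146) with Itgam and 17.9% (165 of 922) without. Cells with an Itgam UMI thus had Itgb7 less often, at median depths before thinning of 12951 against 15488 UMIs and of 18766 against 22973 UMIs. Neutrophil-like cells of VD-Mac had 463 CPM of Itgam and 18.2 CPM of Itgb7. Neutrophil markers summed to 1574 CPM in the macrophage-like and 14357 CPM in the proliferating class. The part of such cells in this difference was not tested.

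The same comparison without thinning gave 54.1% with Itgam and 69.5% without in macrophage-like cells, where both sets had a median near 15160 UMIs. In proliferating cells it gave 57.5% with and 79.7% without. After thinning to 1000 UMIs the numbers were 10 of 100 and 118 of 1072 macrophage-like cells, and 7.59% and 9.49% of proliferating cells. At that depth the difference was not detectable. In Co-Mac macrophage-like cells thinned to 2000 UMIs, 3.76% with Itgam and 4.80% without had an Itgb7 UMI, with overlapping intervals.

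In the graft, levels of the members were read in 11 classes of at least 20 cells. Neutrophil-like cells (477) and monocyte-like cells (434) were the most numerous, followed by Trem2 macrophage-like (372), alpha-beta T cell-like (178), Cd163 macrophage-like (157), fibroblast-like (142), gamma-delta T cell-like (123) and DC-like cells (103). B lineage-like (43), neutrophil precursor-like (40) and endothelial-like cells (25) were few. A class of 14 mast cell or basophil-like cells is not shown. The leading genes of the alpha-beta T cell-like cluster began with Gzma, a marker of natural killer cells in the sets used, and Nkg7. Whether this class holds natural killer cells was not tested. Orders below are within 1 library of pooled hosts.

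Of the 11 named classes, Itgam was highest in neutrophil precursor-like cells at 879 CPM (783 to 984). An unnamed cluster of 36 cells had 1189 CPM (853 to 1613) from 41 UMIs, and these intervals overlap. Neutrophil-like cells followed at 475 CPM (436 to 516), then Trem2 macrophage-like cells at 381 CPM, monocyte-like cells at 258 CPM and Cd163 macrophage-like cells at 214 CPM, and none of these intervals overlapped with its neighbour. Fibroblast-like cells were lowest with 4.38 CPM. B lineage-like cells had 118 CPM, above DC-like cells at 74.7 CPM. Both T cell classes were low, with alpha-beta T cell-like cells at 13.6 CPM and gamma-delta T cell-like cells at 7.01 CPM. After thinning, 55.2% of neutrophil-like cells had an Itgam UMI (158 cells left out, 58.1% unthinned, median depth 2567 UMIs after leaving them out), against 2.13% of fibroblast-like cells (1 left out, 9.86% unthinned, median depth 25429 UMIs).

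Itgal had another order. Its highest level was in gamma-delta T cell-like cells at 508 CPM (457 to 563), and alpha-beta T cell-like cells came next at 321 CPM (289 to 355). Neutrophil-like cells at 192 CPM and neutrophil precursor-like cells at 168 CPM did not differ beyond their intervals. Trem2 macrophage-like cells had 34.2 CPM and Cd163 macrophage-like cells 11.6 CPM, so that Itgal was low in the macrophage classes and high in the T cell classes. B lineage-like cells had 103 CPM, below the neutrophil classes in value and overlapping monocyte-like cells at 98.4 CPM. The share of gamma-delta T cell-like cells with an Itgal UMI was 50.8% after thinning (1 left out, 82.1% unthinned, median depth 5582 UMIs). In fibroblast-like cells it was 0 of 141, which allows a share of up to 2.58%, with 3.52% unthinned.

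Itgb2 had its highest levels in a pair of classes. Neutrophil precursor-like cells at 531 CPM (457 to 614) and Trem2 macrophage-like cells at 515 CPM (498 to 532) did not differ beyond their intervals. Neutrophil-like cells had 292 CPM, monocyte-like cells 232 CPM, alpha-beta T cell-like cells 122 CPM and gamma-delta T cell-like cells 92.6 CPM. Fibroblast-like cells had 4.65 CPM and endothelial-like cells 19.1 CPM, the lowest levels of the 11 classes.

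Within a class, chains of 1 pair were partly found in the same cells. Of Trem2 macrophage-like cells thinned to 2000 UMIs, 63.9% (56.4 to 70.9) of those with Itgam and 37.5% (30.5 to 44.9) of those without had an Itgb2 UMI. Of neutrophil-like cells, 58.3% (47.1 to 69.0) of those with Itgal and 35.3% (29.2 to 41.8) of those without had one. Both differences lay beyond their intervals. Thinned to 1000 UMIs, the shares were 36.1% and 31.7% in Trem2 macrophage-like cells and 33.8% and 23.0% in neutrophil-like cells, and the intervals overlapped.

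Itgb7 was highest in T cell classes, with 182 CPM in gamma-delta T cell-like cells (152 to 217) and 182 CPM in alpha-beta T cell-like cells (158 to 208). DC-like cells followed at 99.1 CPM (83.1 to 117). Monocyte-like cells had 51.2 CPM, Trem2 macrophage-like cells 31.0 CPM and Cd163 macrophage-like cells 5.35 CPM, so the graft macrophage classes differed among themselves. Neutrophil-like cells had 1.74 CPM from 2 UMIs. Of gamma-delta T cell-like cells, 31.1% had an Itgb7 UMI after thinning (59.3% unthinned), and of neutrophil-like cells 0.313% did (0.419% unthinned, median depth 2567 UMIs).

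Itgae was highest in gamma-delta T cell-like cells at 191 CPM (160 to 226). DC-like cells at 65.1 CPM and alpha-beta T cell-like cells at 60.4 CPM came next and did not differ beyond their intervals. Neutrophil-like and neutrophil precursor-like cells had 0 UMIs, with limits of 2.61 and 8.71 CPM, and both macrophage classes and the monocyte-like class had 1 UMI each. The top class of Itgae was thus 1 of the 2 T cell classes in which Itgb7, its partner, was high without a difference between them. The thinned share of gamma-delta T cell-like cells with an Itgae UMI was 31.1% (23.1 to 40.2), with 53.7% unthinned, against 0 of 319 neutrophil-like cells, which allows up to 1.15%.

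Itga4 was highest in DC-like cells at 243 CPM (218 to 271), followed by B lineage-like cells at 119 CPM (97.4 to 144). The B lineage-like cluster also had 118 CPM of Itgam and 116 CPM of Itgax, and under 5 of the 8 alternatives run on the graft Itga4 was highest in the B lineage-like class. Alpha-beta T cell-like cells had 63.8 CPM, neutrophil-like cells 56.6 CPM and monocyte-like cells 52.6 CPM, with overlapping intervals. Gamma-delta T cell-like cells had 2.81 CPM from 2 UMIs, unlike their alpha-beta counterparts. The alpha chains that pair with Itgb7 thus split between T cell classes, with Itgae higher in the gamma-delta and Itga4 in the alpha-beta class.

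Itga6 was highest in endothelial-like cells at 340 CPM (294 to 391) from 25 cells. Alpha-beta T cell-like cells had 105 CPM (87.0 to 125) and gamma-delta T cell-like cells 9.82 CPM. Trem2 macrophage-like cells had 33.2 CPM, above Cd163 macrophage-like cells at 5.80 CPM. Of the leukocyte classes shown, Itga6 was thus highest in alpha-beta T cell-like cells.

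Itgb1 was highest in endothelial-like cells at 648 CPM (584 to 717). Fibroblast-like cells at 394 CPM and Cd163 macrophage-like cells at 352 CPM did not differ beyond their intervals. Neutrophil precursor-like cells were lowest with 29.0 CPM, and neutrophil-like cells had 105 CPM. Itgb1 was thus lowest in the class of the 11 where Itgam was highest.

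Itgav was highest in gamma-delta T cell-like cells at 293 CPM (255 to 336). Monocyte-like cells at 184 CPM and alpha-beta T cell-like cells at 157 CPM overlapped in their intervals. Neutrophil-like cells had 15.7 CPM and neutrophil precursor-like cells 5.80 CPM. Itgb5 was highest in fibroblast-like cells at 149 CPM (137 to 162), above Trem2 macrophage-like cells at 125 CPM (117 to 133). In gamma-delta T cell-like cells, the top class of Itgav, Itgb5 had 29.5 CPM and the 7th level of the 11 classes.

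**Figure D3:**
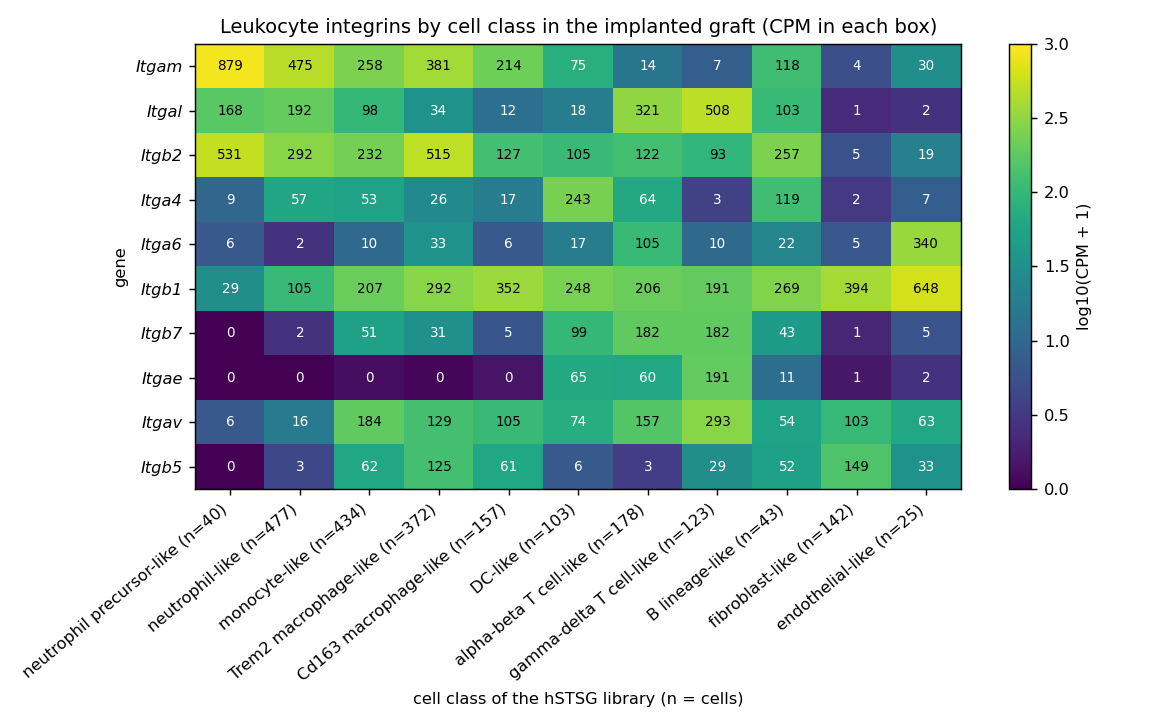
Level in CPM of each member (vertical) in 11 cell classes of the hSTSG library (horizontal, n = cells), with colour on the scale of log10(CPM + 1) and the CPM printed in each box. Itgam reaches 879 CPM in neutrophil precursor-like cells, Itgal 508 CPM in gamma-delta T cell-like cells and Itgb1 648 CPM in endothelial-like cells.

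Across 22 sums of cells (classes of at least 50 cells in the 3 libraries), the correlation of log2 levels describes which chains shared a pattern. The sums of 1 library share its depth and handling. Itgam and Itgb2 had a Pearson r of 0.83, Itgae and Itgb7 had 0.72, and Itgal and Itgb2 had 0.62. Itga4 had an r of -0.03 with Itgb7 and 0.21 with Itgb1. Itgav had 0.45 with Itgb1 and 0.39 with Itgb5, and Itga6 had 0.08 with Itgb1. Partner chains therefore did not all track each other. Itgam and Itgb7, which differed in opposite directions between the culture libraries, had an r of -0.33.

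For each member the most similar genes were sought over these 22 sums among 6460 genes with at least 50 CPM in 1 or more of them. For Itgam the highest r belonged to Bst1 (0.91), Cybb (0.89) and Tarm1 (0.89). For Itgal it was Batf (0.92), then Spata13 (0.86) and Lcp2 (0.85), and for Itgb2 it was Myo1f (0.88), Adssl1 (0.87) and Ptpre (0.86). For Itgb7 the genes were Arhgap18 (0.79), Mbnl1 (0.76) and Arl6ip5 (0.76). For Itgae they were Adgrg5 (0.92), AC163354.1 (0.86) and Traf4 (0.85). These lists share no gene.

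For Itga4 the most similar genes were Gpcpd1 (0.76), Actg1 (0.76) and Fam49a (0.75). For Itga6 they were Pdzk1ip1 (0.89), Pdcd4 (0.81) and Hipk2 (0.79), and for Itgb1 they were Rai14 (0.88), Mt2 (0.87) and Aplp2 (0.87). Itgav had the closest matches of the 10 members in Pias2 (0.95), Gstp1 (0.94) and Smurf2 (0.94). Itgb5 had Nupr1 (0.84), Ahnak2 (0.79) and Wls (0.79).

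Of the 17 other integrin chains, 13 reached 10 CPM in some library or class of at least 50 cells. The exceptions were Itga8, Itga10, Itgad and Itgb6. Over all kept cells 0 of the 3 chains tested were called higher, where 2.16% of all genes were, and 0 lower, where 4.63% were. In macrophage-like cells 0 of 3 were called higher, against 4.64% of all genes, and 1 lower, against 5.87%. The chain called was Itgax, the alpha X chain (CD11c), with 327 CPM (320 to 334) in Co-Mac and 161 CPM (156 to 167) in VD-Mac and a log2 ratio of -1.02. Itgax over all kept cells had 146 CPM in Co-Mac and 77.8 CPM in VD-Mac, 1.88-fold lower. It was called lower there with cells under 5% mitochondrial UMIs (-1.47) and at 1.5-fold. The call in macrophage-like cells lay close to the threshold. It was lost with 300 UMIs as the cell minimum (-0.99), with the median ratio of all genes set to 0 (-0.96) and with proliferating clusters joined (-0.73). Itgam, Itgal and Itgax were lower in VD-Mac macrophage-like cells, and Itgad, the other alpha partner of Itgb2, had 1 UMI in Co-Mac and 2 in VD-Mac there. In proliferating cells Itgax had 171 CPM in Co-Mac and 111 CPM in VD-Mac, 1.53-fold lower, and was not called.

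In the graft Itgax was highest in Trem2 macrophage-like cells at 229 CPM. Itgb3, a partner of Itgav, was highest in gamma-delta T cell-like cells at 215 CPM (182 to 251), the class where Itgav was also highest, and alpha-beta T cell-like cells had 147 CPM. Itga9 was highest in Cd163 macrophage-like cells at 129 CPM. Itga1 was highest in endothelial-like cells at 351 CPM and Itga5 in fibroblast-like cells at 138 CPM, so the chains outside the 10 marked non-leukocyte classes as well. Itga11 had 39.7 CPM in fibroblast-like cells, Itga2 22.6 CPM and Itga7 33.0 CPM in endothelial-like cells.

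In proliferating cells 0 of 3 other chains tested were called higher and 0 lower, against 3.27% and 4.78% of all genes. Mature DC-like cells had 0 of 4 called higher (2.29% of all genes) and 1 lower (2.4%), which was Itgb2l. Neutrophil-like cells had 0 of 3 called higher (1.64%) and 1 lower (2.3%), and this was Itga1, which fell from 35.3 to 14.6 CPM. Of 5 chains tested in neutrophil precursor-like cells, 1 was called higher (3.84%) and 2 lower (7.55%), each on few UMIs: Itgb3 had 6 UMIs in Co-Mac and 12 in VD-Mac, Itga1 43 and 11, and Itga5 24 and 8. The intervals of the log2 ratios of Itgb3 and Itga5 there included 0. Of 4 tested in cDC1-like cells, 0 were called higher (9.32%) and 2 lower (7.44%): Itga1 fell from 95.1 to 28.1 CPM and Itga2b from 15 UMIs to 2. Mast cell or basophil-like cells had 1 of 4 called higher (9.03%) and 0 lower (6.25%), and this was Itgb3, which rose from 111 to 258 CPM.

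Itga2b was highest in mast cell or basophil-like cells of Co-Mac at 484 CPM (433 to 538), and Itgb3, its partner on platelets, was highest in the same class of VD-Mac at 258 CPM. Itga3 and Itgb4 were highest in graft gamma-delta T cell-like cells at 32.3 and 30.9 CPM, and Itgb8 reached 11.1 CPM in alpha-beta T cell-like cells. The sequence of Itgb2l resembles Itgb2, and whether this affected its counts was not tested. Itgb2l had 148 CPM in graft neutrophil precursor-like cells. In Co-Mac 497 of its 700 UMIs were in mature DC-like cells, where it fell by a log2 ratio of 1.78 to 3.51 CPM in VD-Mac, and neutrophil precursor-like cells had 44.0 CPM in Co-Mac and 45.2 CPM in VD-Mac. In the graft, Itgb2l had 1 UMI or 0 in each of the other 10 classes.

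The ligands of these receptors were read from a list of 22 genes. Over all kept cells 1 of 9 tested was called higher, where 2.16% of all genes were, and 5 lower, where 4.63% were, with a median log2 ratio of -1.31. C3, the source of the iC3b that Mac-1 binds, rose from 104 to 344 CPM over all kept cells and from 134 to 791 CPM in macrophage-like cells. Fn1 (fibronectin, a ligand of Itga4 with Itgb1) fell from 388 to 41.1 CPM over all kept cells and from 1079 to 134 CPM in macrophage-like cells. Cdh1 (E-cadherin, the ligand of Itgae with Itgb7) fell from 50.5 to 2.50 CPM over all kept cells and from 54.8 to 3.42 CPM in macrophage-like cells.

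F11r (JAM-A, a ligand of LFA-1) fell from 19.7 to 4.25 CPM over all kept cells and from 20.6 to 3.02 CPM in macrophage-like cells. Mfge8, which binds Itgav with Itgb5 or Itgb3, fell from 137 to 36.1 CPM over all kept cells and from 149 to 50.2 CPM in macrophage-like cells. Within macrophage-like cells 1 of 8 ligands tested was called higher, against 4.64% of all genes, and 4 lower, against 5.87%, with a median log2 ratio of -1.03.

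The remaining classes did not all lean the same way on the ligands. In proliferating cells 1 of 9 was called higher (3.27% of all genes) and 4 lower (4.78%), with a median log2 ratio of -0.98, and these were the 5 genes just named. In mature DC-like cells, the largest class, 2 of 6 were called higher (2.29%), Spp1 and C3, and 2 lower (2.4%), F11r and Mfge8, with a median of 0.41. In cDC1-like cells 2 of 7 were called higher (9.32%), Icam1 and Spp1, and 3 lower (7.44%), Cdh1, F11r and Mfge8, with a median of 0.38. The interval of F11r there included 0. In mast cell or basophil-like cells 2 of 10 were called higher (9.03%), F11r and Lama5, and 0 lower (6.25%), with a median of -0.02. In neutrophil-like cells 0 of 7 were called higher (1.64%) and 3 lower (2.3%), Cdh1, Fn1 and Spp1, with a median of -0.89. In neutrophil precursor-like cells 0 of 11 were called higher (3.84%) and 4 lower (7.55%), Cdh1, Fn1, Jam2 and Mfge8, with a median of -0.63. The intervals of Cdh1 and Mfge8 there included 0.

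Of 20 genes for activation from inside and for adaptors of the tail, 14 were tested over all kept cells, with 0 called higher (2.16% of all genes), 2 called lower (4.63%) and a median log2 ratio of -0.18. In macrophage-like cells 0 of 15 were called higher and 2 lower, against 4.64% and 5.87% of all genes. Flna (filamin A, which holds the beta tail) fell from 231 to 91.7 CPM over all kept cells and from 342 to 134 CPM in macrophage-like cells. Dab2, an endocytic adaptor, fell from 102 to 47.1 CPM over all kept cells, and in macrophage-like cells it had 149 CPM in Co-Mac and 116 CPM in VD-Mac. Of 20 genes for signalling after binding and for adhesion sites, 19 were tested over all kept cells, with 0 called higher, 1 called lower and a median of -0.36, against the same shares. In macrophage-like cells 0 of 19 were called higher and 3 lower, with a median of -0.23. The gene called over all kept cells was Zyx (zyxin, at adhesion sites), which fell from 295 to 81.7 CPM over all kept cells and from 600 to 83.5 CPM in macrophage-like cells. In the other 6 classes the medians ran from -0.13 to 0.21 for the first of these lists and from -0.26 to 0.23 for the second. In proliferating cells 1 of 16 genes of the first list was called higher (3.27% of all genes) and 2 lower (4.78%). Neutrophil-like cells had 1 of 16 higher (1.64%) and 1 lower (2.3%), and cDC1-like cells 1 of 14 (9.32%) and 2 (7.44%). Mast cell or basophil-like cells had 1 of 15 higher (9.03%) and 0 lower (6.25%), and of the second list 2 of 17 and 1. Every other count of these lists there was 0 higher and 1 to 3 lower.

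Each member has 1 Ensembl gene, placed here on GRCm38. Itgal (ENSMUSG00000030830) lies at chr7:127296260-127335138 and Itgam (ENSMUSG00000030786) at chr7:128062640-128118491, 727501 bases apart. Itgax follows Itgam after 11055 bases at chr7:128129547-128150657, and Itgad follows Itgax after 3718 bases. The alpha partners of Itgb2 are thus on 1 chromosome. Itgad had at most 3 UMIs in a graft class, in neutrophil-like cells.

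Itga6 (ENSMUSG00000027111, chr2:71745616-71858416), Itga4 (ENSMUSG00000027009, chr2:79255426-79333123) and Itgav (ENSMUSG00000027087, chr2:83724397-83806916) share chromosome 2. Their neighbours in this order are 7397 and 4391 kb apart. Itgb2 (ENSMUSG00000000290) is at chr10:77530252-77565708, Itgb1 (ENSMUSG00000025809) at chr8:128685654-128733200 and Itgb7 (ENSMUSG00000001281) at chr15:102215995-102231944 on the minus strand. Itgae (ENSMUSG00000005947) is at chr11:73090583-73147446 and Itgb5 (ENSMUSG00000022817) at chr16:33829665-33949338. The beta chains are on separate chromosomes, away from their alpha partners.

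Promoters of 300 bases were at hand for 6 of the 10 members in the RefSeq table for GRCm38.p6, namely Itgam, Itga4, Itgb1, Itgb7, Itgav and Itgb5. GAGGAA, the core that the myeloid factor PU.1 binds, was searched on both strands (TTCCTC on the other). It was found 3 times in Itgam, 2 times in Itgav and 1 time each in Itgb7 and Itgb1, and 28.3% of all 32851 promoters hold it. The half-sites AGGTCA and GGTTCA of the vitamin D receptor, read on both strands, are held by 16.3% and 10.4% of all promoters. Among the 6, Itgb1 had 1 GGTTCA and no promoter had AGGTCA.

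The promoters of Itgam, the member that fell most in macrophage-like cells, and Itgb7, the member that rose most, are shown 5′ to 3′ along the gene's strand, with GAGGAA or TTCCTC in capitals. The first is chr7:128062390-128062689 on the plus strand and the second chr15:102231886-102232185 on the minus strand of GRCm38.p6.
Itgam: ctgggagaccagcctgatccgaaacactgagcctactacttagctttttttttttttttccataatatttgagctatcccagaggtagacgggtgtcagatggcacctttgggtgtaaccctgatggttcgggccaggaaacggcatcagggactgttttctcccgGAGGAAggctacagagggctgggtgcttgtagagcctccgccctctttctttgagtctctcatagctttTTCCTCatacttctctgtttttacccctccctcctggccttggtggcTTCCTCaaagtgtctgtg
Itgb7: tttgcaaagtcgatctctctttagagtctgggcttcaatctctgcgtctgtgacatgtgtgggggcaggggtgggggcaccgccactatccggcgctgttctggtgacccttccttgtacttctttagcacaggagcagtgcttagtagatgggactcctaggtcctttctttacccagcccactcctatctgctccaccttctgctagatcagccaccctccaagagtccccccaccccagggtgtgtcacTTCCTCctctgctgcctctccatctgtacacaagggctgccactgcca
A match of letters is a description of the sequence and not a bound site.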

How the data were processed

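Single-cell 3' RNA libraries from 2 marrow cultures and 1 pooled graft were used, 1 per group. The authors deposited raw UMI counts per gene and barcode made with Cell Ranger, and the labels also name Seurat 3.1.1. Hashtag antibody features were left out of all gene counts. Members and gene lists were chosen with earlier results of these data known. Cells passed the filters of the study's methods, with genes in place of transcripts for the minimum of 300.

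Clusters came from Seurat 5.3.0 in R 4.3.3 (scale 10000, 2000 variable genes without integrin chains, 15 components, 15 neighbours, resolution 0.5), for both cultures together and the graft alone. Each cluster was compared with the rest of its library over 22 marker sets, and the rule for naming was settled after the clusters were seen. It asks for a mean log2 difference of 0.5 or more over at least 3 markers found in 10% of cells, a margin of 0.5 over another lineage, and no more markers of another lineage than of its own among the 10 leading genes. A cluster with 4 or more cell cycle genes among these was named proliferating if its median depth was at least the library median divided by 3, and was left unnamed otherwise. Other clusters below that depth needed a marker of their own among the leading genes. Doublets were scored with Scrublet in scanpy 1.11.5 and kept, with removal as an alternative.

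Counts were summed per class and divided by all gene UMIs of the same cells. Ratios carry exact conditional binomial 95% intervals (scipy 1.17.1), and no test was made with 1 library per group. The counting of calls was checked on simulated counts. A count of 0 is given the limit of 3 counts. Named genes were all members, other chains with 10 CPM or more in a class of at least 50 cells, up to 4 called genes per list and direction over all kept cells, and the 3 genes most like each member. Ligands called in single classes, chains below that level, and marker or leading genes of clusters were named as well. Alternatives covered cell filters, clustering, scaling, thresholds, class weighting and thinning. The labels name mm9 and the study's methods a human genome, while the features are mouse Ensembl genes, so positions come from an annotation of GRCm38 matched by Ensembl ID.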

Additional observations from a re-analysis of the deposited data

Results flagged for a closer look

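The hSTSG library carried 1195935 UMIs of hashtag antibodies, a signal in data that no comparison above uses. It came from 11 antibodies above the limit of 3 UMIs, and the most abundant gave 579695 UMIs. The 2 culture libraries had 0 hashtag UMIs. The labels do not pair the antibodies with mice, so no level was split by host.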

How the results depend on the processing

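No paired analysis was possible because each group has 1 library and no replicate numbers. Of 82 counts under alternatives, 73 lay within 1.5 times the value in the report. With cells under 5% mitochondrial UMIs (3125, 3619 and 1779 cells in Co-Mac, VD-Mac and hSTSG), 1 member (Itgal, with the call of Itgam lost) was called lower over all kept cells, and 6 of 10 members kept their top graft class. That filter gives no count for macrophage-like or proliferating cells, and resolution 0.3 none for proliferating cells. A count is missing where a library had under 20 cells in the class. Why so few cells got the name under these alternatives was not tested. Of the macrophage-like cells in the report, 168 of 1053 in Co-Mac and 103 of 1172 in VD-Mac had under 5% mitochondrial UMIs. Of the proliferating cells, 527 of 1563 and 163 of 1071 did. With the mean over cells in place of summed counts, 1 member was called lower over all kept cells (Itgal) and 1 in proliferating cells (Itgam). With the median log2 ratio set to 0, and also at 1.5-fold, 2 members were called higher over all kept cells. The former left 1 member called lower in proliferating cells, Itgam. With a minimum of 50 CPM, 1 member was called higher in macrophage-like cells and 1 in proliferating cells, since Itga6 lies below that minimum. The cause of the other differences was not tested.

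Itga4 kept its call in macrophage-like cells under 11 of 14 alternatives, Itgam and Itgal under all 14 there. No called ratio of the members changed sign under the alternatives run. Of 100 log2 ratios over all kept cells 68 stayed within their counting interval and 32 did not, of 140 in macrophage-like cells 123 did and 17 did not, and of 130 in proliferating cells 97 did and 33 did not. Itgam ranged from -1.92 to -0.78 over all kept cells, the latter under 5% mitochondrial UMIs, and from -2.36 to -2.01 in macrophage-like cells. Itgb7 ranged from 1.01 to 1.78 and from 1.95 to 2.19. In proliferating cells Itgam ranged from -2.67 to -1.61 and Itgb7 from 1.73 to 2.11, while the uncalled Itgb5 ranged from -0.12 to 0.12. The direction of Itgb5 over all kept cells (-0.20) turned to 0.03 with VD-Mac classes weighted by Co-Mac shares, and that of Itgb1 in proliferating cells (-0.12) to 0.00 (positive) with the median log2 ratio set to 0. Joining macrophage-like and proliferating clusters, chosen after seeing the data, left 2 members called higher and 2 lower. The same counts came from proliferating clusters of any depth, also chosen after seeing the data. In 5 of the alternatives that were run on the graft, Itga4 was highest in B lineage-like cells, and Itgb2 was highest in Trem2 macrophage-like cells in all 8.

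The number of cells limits the small classes: 25 endothelial-like cells, 40 neutrophil precursor-like cells and 62 mast cell or basophil-like cells give wide intervals. Without replicates, no difference between the cultures can be told apart from a difference between 2 preparations.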

Other observations

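The largest cluster with no name was VD-Mac cluster 4, with 1445 cells at a median of 1829 UMIs and 6 cell cycle genes among its 10 leading genes. Its levels were 11.5 CPM of Itgam, 53.6 CPM of Itgb2, 41.8 CPM of Itgb1 and 35.8 CPM of Itgb7. Co-Mac cluster 8, also unnamed, had 440 cells at a median of 3246 UMIs. It had 16.2 CPM of Itgam, 54.7 CPM of Itgb2, 16.8 CPM of Itgb1 and 6.83 CPM of Itgb7. Most UMIs of unnamed culture cells came from deeper clusters. VD-Mac cluster 9 (318 cells, median of 28622 UMIs) held 9138636 of 12420815, and came closest to the macrophage markers without meeting the naming rule. Co-Mac cluster 11 (236 cells, median of 28199 UMIs) held 6973707 of 8897045, with 186 CPM of Itgam and 224 CPM of Itgb2. An unnamed graft cluster of 36 cells at a median of 668 UMIs, with Prg2 and Ccr3 among its leading genes, had 1189 CPM of Itgam from 41 UMIs and 174 CPM of Itgb2 from 6 UMIs.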
